A study of Mus musculus with 32 samples.

Results

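Stfa1, Stfa2, Stfa2l1 and BC100530 are 4 neighbouring copies of the mouse stefin A gene on chromosome 16, and their RNA was followed in cartilage over every group of the study. They were chosen by name as 4 of the 1606 genes in the cartilage table, with their cartilage values over all 7 groups in view. Those values are therefore given as a description without tests. The study sequenced RNA from 32 samples of C57BL/6 mice, 18 of synovium in 6 groups and 14 of cartilage in 7 groups. The cartilage groups were MMS D3, MMS D7, MMS D14, MMS D28, R1, R2 and Control, with n = 2 in each. What MMS, R1 and R2 stand for, the unit of the numbers after D and the age of the mice are not in the labels, so the names are used as given. They also do not say that replicates came from separate animals, so every p-value below measures only the spread between samples. Synovium values of these genes were not analysed here.

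Stefins are small proteins of the cytoplasm that bind and block papain-like cysteine proteases, the family of the lysosomal cathepsins. They belong to the cystatin superfamily, whose other branches are secreted cystatins and kininogens. Human has CSTA as its stefin A gene, whereas in mouse the gene has been copied in tandem. In mouse the copies are known from neutrophils and their precursors in bone marrow and from skin.

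The values are a normalised signal of no stated unit, so levels are compared between groups and not between genes. Depth is unknown, and the values summed to 108504 to 149830 per sample over the listed genes. The table holds selected genes: 99.0% of them differed at least 1.5-fold between the means of MMS D28 and Control. Calls of MMS D28 against Control are therefore bound to that selection for every gene and list below, and are a description only. Other comparisons that use the MMS D28 or the Control samples reuse part of that contrast, so they are not free of the selection. S100a9, S100a8 and Ngp, genes of neutrophil granule and cytosol proteins, had the highest mean values in the table. The cartilage collagen gene Col2a1 stood at rank 33, whereas Chad, another chondrocyte gene, averaged 8691 in Control, beside 8667 for S100a9. Without a unit such an order of genes is only a rough guide. The tissue labelled cartilage held RNA of neutrophil genes beside that of cartilage genes in every group. In such bulk RNA, fewer cells of a type and less RNA per cell cannot be told apart.

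In GENCODE vM21 on GRCm38, the assembly also called mm10, the stefin A cluster holds 10 protein-coding genes between Ccdc58 and Casr, of which 6 are in the cartilage table. Stfa2l1 (ENSMUSG00000059657.5) lies at chr16:36156811-36161953 on the plus strand. Stfa1 (ENSMUSG00000071562.6) lies at chr16:36276951-36285373 on the plus strand. BC100530 (ENSMUSG00000071561.2) lies at chr16:36359382-36367748 and Stfa2 (ENSMUSG00000022902.8) at chr16:36403992-36408457, both on the minus strand. The 4 genes span 251.6 kb. The other copies in the table are Gm5483, on the plus strand next to Stfa2l1, and Stfa3, on the minus strand beyond Stfa2.

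**Figure D1:**
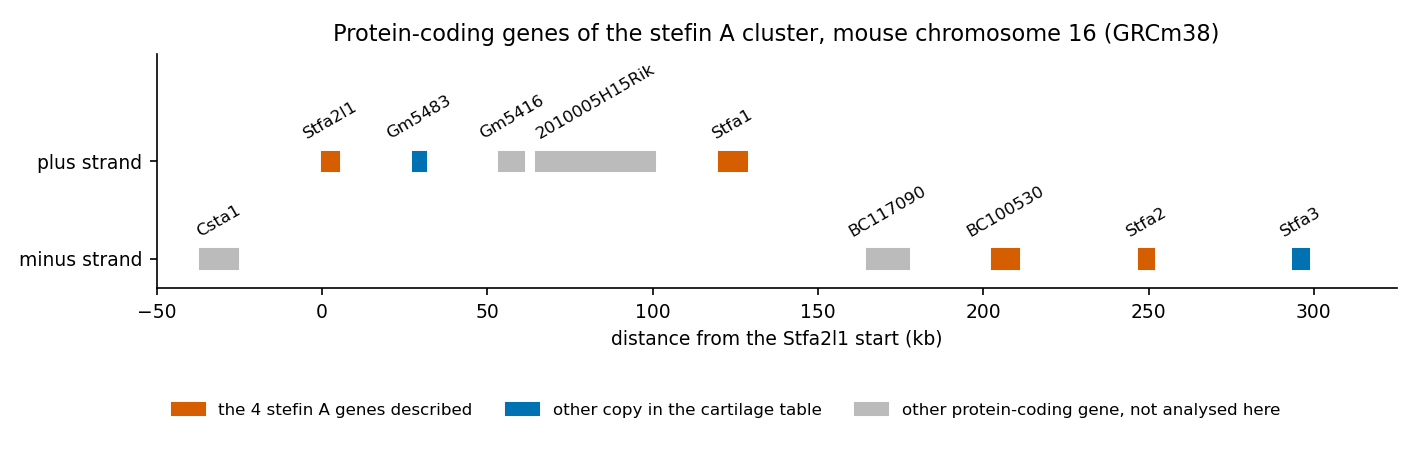
Protein-coding genes of the stefin A cluster on mouse chromosome 16 (GRCm38), drawn to scale by strand against the distance from the Stfa2l1 start in kb. Orange boxes are the 4 genes described, blue boxes the copies Gm5483 and Stfa3, and grey boxes genes not analysed here; the left edge of Stfa1 lies at 120.14 kb and that of Stfa2 at 247.18 kb.

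In the transcript used, each copy has 3 coding exons, with a coding length of 309 bases in Stfa2, Stfa2l1 and Stfa3 and of 291 bases in Stfa1, BC100530 and Gm5483. Exon 2 has 102 bases in all 6 copies and shows how they pair off. It is printed from the reference genome on the strand of the gene, with capitals where a copy differs from Stfa2l1. The exon lies at chr16:36159946-36160047 (plus) in Stfa2l1, chr16:36405130-36405231 (minus) in Stfa2, chr16:36280466-36280567 (plus) in Stfa1 and chr16:36364212-36364313 (minus) in BC100530. In the other copies it lies at chr16:36452151-36452252 (minus) in Stfa3 and chr16:36186364-36186465 (plus) in Gm5483.
Stfa2l1: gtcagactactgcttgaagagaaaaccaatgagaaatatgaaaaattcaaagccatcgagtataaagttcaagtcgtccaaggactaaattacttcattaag
Stfa2: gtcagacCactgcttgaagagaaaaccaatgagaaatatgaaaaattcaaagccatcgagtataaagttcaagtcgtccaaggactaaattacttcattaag
Stfa1: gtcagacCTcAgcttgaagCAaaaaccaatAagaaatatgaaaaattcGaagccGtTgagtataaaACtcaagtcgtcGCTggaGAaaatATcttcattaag
BC100530: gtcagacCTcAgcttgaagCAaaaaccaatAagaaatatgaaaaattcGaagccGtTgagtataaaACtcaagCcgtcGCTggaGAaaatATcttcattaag
Stfa3: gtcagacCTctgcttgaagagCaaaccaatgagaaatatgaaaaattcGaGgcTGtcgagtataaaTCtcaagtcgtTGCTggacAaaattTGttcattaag
Gm5483: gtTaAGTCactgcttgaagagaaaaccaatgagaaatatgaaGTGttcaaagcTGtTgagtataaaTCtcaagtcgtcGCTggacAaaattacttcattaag
Stfa2 differed from Stfa2l1 at 1 base of this exon, whereas Stfa1 differed at 18, BC100530 at 19, Stfa3 at 16 and Gm5483 at 17. Over the 225 coding bases of exons 2 and 3, Stfa1 and BC100530 were 98.7% identical, with 3 differing bases. Stfa2 and Stfa2l1 were 97.8% identical, with 5 differing bases. Every other pair among the 6 copies shared 77.8% to 83.6%. In each of these close pairs, 1 gene lies on either strand.

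**Figure D2:**
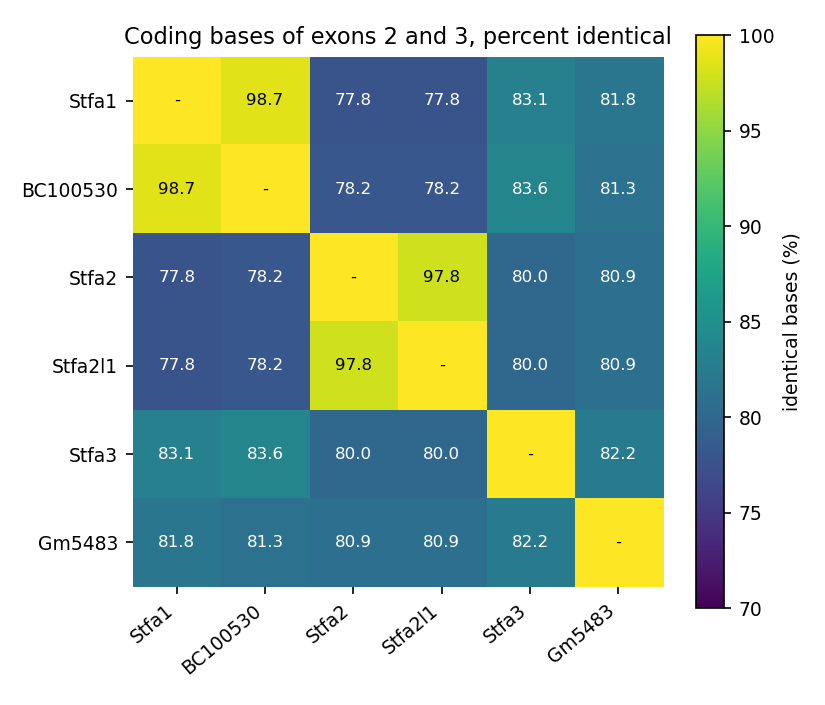
Percent identical bases between the stefin A copies over the 225 coding bases of exons 2 and 3, as a colour scale from 70 to 100 with the value in each cell. The pairs Stfa1 with BC100530 (98.7%) and Stfa2 with Stfa2l1 (97.8%) stand out from the rest, which lie between 77.8% and 83.6%.

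Such likeness bears on how far the values of single copies can be trusted, since reads that match several copies equally cannot be assigned by sequence. Of all windows of 50 bases along the annotated transcript, 48.9% in BC100530, 26.9% in Stfa1, 24.6% in Stfa2l1 and 15.9% in Stfa2 occurred in the transcript of another gene. Exact matches were counted, also those of the reverse complement. With windows of 100 bases the shares were 22.3% in BC100530, 5.6% in Stfa1, and 0% in Stfa2l1 and in Stfa2. No window of Stfa3 was shared at either length. The partners of BC100530 included Gm15845, an antisense gene that overlaps it, and whether counting used strand is not given in the sources used here. The read length and the handling of shared reads are not given there either, so the BC100530 values are the least certain of the 4.

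The stretch just upstream of the RefSeq start site was also alike in all copies. It is printed below from RefSeq (GRCm38.p6, all 4 genes matched by gene ID, BC100530 as Cstdc5) because these genes varied together across the groups. Capitals mark the letters TTTAAA, which ended 25 bases before the RefSeq start in Stfa1, 24 in Stfa2, 28 in Stfa2l1 and 4 in BC100530. The stretches lie at chr16:36277097-36277126 (plus) for Stfa1, chr16:36408384-36408413 (minus) for Stfa2, chr16:36156757-36156786 (plus) for Stfa2l1 and chr16:36367571-36367600 (minus) for BC100530. By the GENCODE positions given above, the stretches of Stfa1, BC100530 and Stfa2 lie inside the gene, and that of Stfa2l1 lies before its start. The RefSeq and GENCODE starts thus differ, and which is right was not tested.
Stfa1: gaggaggagctttcggataccTTTAAAacc
BC100530: gaggaggagtttacagataccTTTAAAacc
Stfa2l1: gaggaggagtttacagaaaccTTTAAAacc
Stfa2: gaggaggagcttacagaaaccTTTAAAacc
Within 60 bases before the RefSeq start, TTTAAA was found in all 4 genes and in Stfa3 and Gm5483, against 2.79% of 32851 RefSeq promoters. GAGGAGGAG, which does not overlap it, was found there in the same 6 copies, against 0.953% of promoters. The letters TATAAA, the plain TATA box, were in none of the 6 copies and in 3.92% of promoters. TTNNGCAA, a form of the site bound by C/EBP factors, was in none of the 6 within 60 bases, against 1.74% of promoters. Within 250 bases it was in Stfa1 and BC100530, against 9.56% of promoters. Both strands were searched, TTTAAA and GAGGAGGAG were chosen after the sequences were seen, and copies that share sequence are not independent.

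In cartilage, Stfa1 had 16.2 and 21.2 in the MMS D3 samples, 16.23 and 15.96 at MMS D7, 47.4 and 42.1 in MMS D14, and 34.1 and 24.7 in MMS D28. It had 13.4 and 16.1 in R1 and 4.66 and 5.55 in R2, against 2.07 and 4.30 in Control. Its level was highest in MMS D14, followed by MMS D28, while MMS D3 overlapped MMS D7 and MMS D7 overlapped R1. Both R2 samples lay above both Control samples, which was seen for no other of the 4 genes.

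BC100530, the copy nearest to Stfa1 in sequence, had 30.4 and 29.3 in MMS D3, 17.6 and 10.5 at MMS D7, 62.7 and 39.0 in MMS D14, and 32.7 and 18.7 in MMS D28. It had 6.35 and 6.53 in R1 and 1.51 and 3.32 in R2, against 2.24 and 2.84 in Control. MMS D14 was highest, MMS D3 and MMS D28 overlapped, and R2 overlapped Control. Its replicates lay far apart in MMS D14, with a mean of 50.8 ± 16.7 (SD, n = 2), and close together in R1, with 6.44 ± 0.127.

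Stfa2 had 50.7 and 45.5 in MMS D3, 27.1 and 26.2 at MMS D7, 62.7 and 53.7 in MMS D14, and 49.1 and 37.1 in MMS D28. It had 12.0 and 13.0 in R1 and 1.59 and 3.73 in R2, against 1.93 and 3.46 in Control. The order of the groups was that of BC100530: MMS D14 first, MMS D3 overlapping MMS D28, then MMS D7 and R1, with R2 overlapping Control.

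Stfa2l1, the copy nearest to Stfa2 in sequence, had 175 and 153 in MMS D3, 112 and 91.5 at MMS D7, 141 and 126 in MMS D14, and 173 and 160.0 in MMS D28. It had 100 and 89.5 in R1 and 43.7 and 47.8 in R2, against 38.4 and 44.3 in Control. It alone of the 4 did not peak in MMS D14, whose samples lay below those of MMS D28 and MMS D3, which overlapped. MMS D7 overlapped R1, and R2 overlapped Control.

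**Figure D3:**
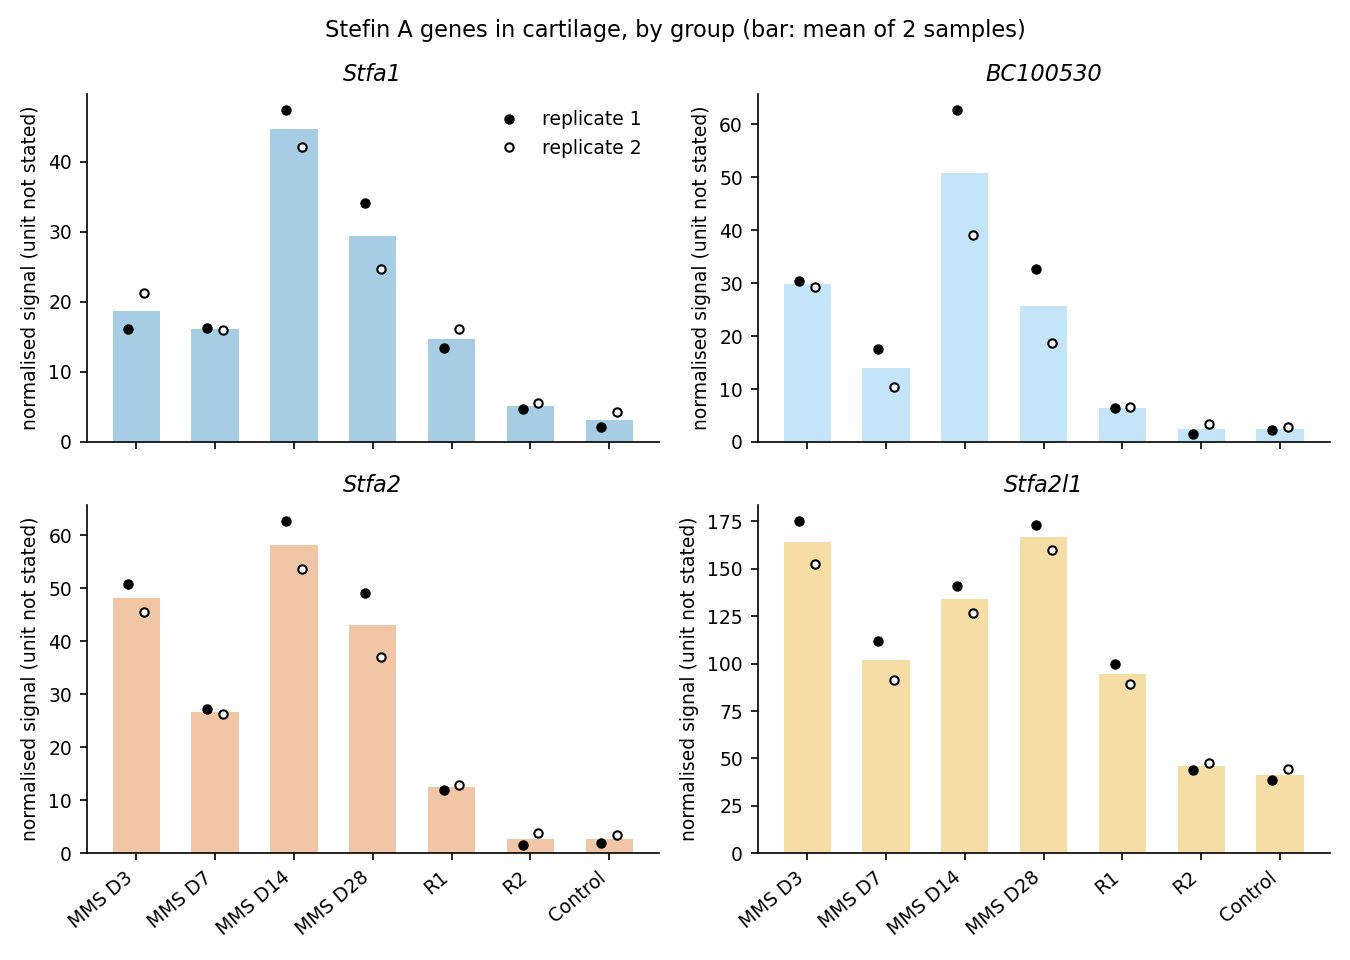
Normalised signal (unit not stated) of the 4 stefin A genes in cartilage by group, with a bar for the mean of 2 samples and a filled and an open point for replicates 1 and 2. In every panel the MMS D7 bar lies below those of MMS D3 and MMS D14, and R2 lies near Control; Stfa2l1 runs between 38.4 and 175, with a high Control level and the flattest profile.

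A dip in MMS D7 between MMS D3 and MMS D14 was shared by the 4 genes in their means. It was large in Stfa2, whose mean was 26.7 ± 0.651 at MMS D7, with 48.1 ± 3.73 in MMS D3 and 58.2 ± 6.35 in MMS D14 (SD, n = 2 each). In Stfa1 the dip was within the spread of the samples, with 16.1 ± 0.191 at MMS D7 and 18.7 ± 3.54 in MMS D3. Between replicates, the higher value was 1.04 to 1.31 times the lower over the 4 genes in MMS D3 and 1.09 to 2.35 times in R2, where levels were low.

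The 4 genes thus differed in how far they stood above Control. The mean of Stfa2 in MMS D14 was 21.6 times that in Control, and the ratios were 20.0 for BC100530, 14 for Stfa1 and 3.23 for Stfa2l1. In MMS D3 the same ratios were 17.8 for Stfa2, 11.7 for BC100530, 5.87 for Stfa1 and 3.96 for Stfa2l1. In MMS D28 they were 16 for Stfa2, 10.1 for BC100530, 9.23 for Stfa1 and 4.03 for Stfa2l1. Stfa2 led at each of these, and Stfa2l1, the copy closest to it in sequence, came last. The Stfa1 ratios rest on Control samples that lay far apart: without Control replicate 2 they were 9.03 in MMS D3, 21.6 in MMS D14 and 14.2 in MMS D28.

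On the scale of log2(value + 1), which understates changes of low values, Stfa2 differed from Control by 3.76 ± 0.259 in MMS D3, 2.94 ± 0.259 at MMS D7, 4.03 ± 0.259 in MMS D14 and 3.60 ± 0.259 in MMS D28 (limma estimate ± SE). BC100530 differed by 3.13, 2.05, 3.84 and 2.87 in the same order of groups, each ± 0.319. Stfa1 differed by 2.28, 2.08, 3.50 and 2.90, each ± 0.237. For Stfa2l1 the differences were 1.96, 1.28, 1.67 and 1.99, each ± 0.150. Stfa2l1, with the smallest differences, also had the smallest SE. In the order of differences over all 1606 genes, Stfa2 ranked 1 in MMS D3, MMS D14 and MMS D28 and 2 at MMS D7.

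Both samples of the group lay above both Control samples for all 4 genes in MMS D3, where 41.3% of all genes did so, and in MMS D7, where 23.3% did. The same held for all 4 in MMS D14, with 44.6% of all genes, and in MMS D28, with 43.1%. Since the genes were chosen from these contrasts, nothing is read from these shares. The median difference of the 4 genes was 2.70 in MMS D3, 2.07 at MMS D7, 3.67 in MMS D14 and 2.88 in MMS D28. Over all 1606 genes the medians were 0.08 in MMS D3, -0.07 at MMS D7, 0.03 in MMS D14 and -0.49 in MMS D28. These comparisons all use the same Control samples.

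R1 lay between the MMS groups and Control, and R2 close to Control. In R1 all 4 genes were above Control in both samples, as were 40.7% of all genes, with log2 differences of 1.96 ± 0.237 for Stfa1, 1.90 ± 0.259 for Stfa2, 1.18 ± 0.150 for Stfa2l1 and 1.08 ± 0.319 for BC100530. In R2 only Stfa1 was above Control in both samples, as were 29.6% of all genes, at 0.59 ± 0.237. The differences of the other 3 in R2 were -0.05 ± 0.259 for Stfa2, 0.15 ± 0.150 for Stfa2l1 and -0.10 ± 0.319 for BC100530, each no larger than its SE. None of the 4 lay below Control in both R2 samples, as 26.7% of all genes did.

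Set against MMS D14, all 4 genes were lower in both R1 samples, as were 27.1% of all genes, and lower in both R2 samples, as were 38.9%. In R1 the mean was 12.7% of the MMS D14 mean for BC100530, 21.4% for Stfa2, 33.0% for Stfa1 and 70.8% for Stfa2l1. In R2 it was 4.57% for Stfa2, 4.75% for BC100530, 11.4% for Stfa1 and 34.2% for Stfa2l1. Without R2 replicate 2 it was 2.73% for Stfa2 and 2.97% for BC100530. BC100530 and Stfa2 were thus farthest from their MMS D14 level in R1 and R2, and Stfa2l1, with its high Control level, nearest to it. As a share of the difference between MMS D14 and Control, the R2 mean differed from Control by 4.8% in Stfa2l1, 4.6% in Stfa1, -0.06% in Stfa2 and -0.26% in BC100530. In R1 the shares were 57.8%, 27.8%, 17.6% and 8.08% in the same order of genes. The R2 shares are finer than the samples allow. For Stfa2 the ratio of R2 to Control was 0.59 without R2 replicate 2 and 1.38 without R2 replicate 1. Set against MMS D28, all 4 were again lower in both R1 samples, as were 19.2% of all genes, and in both R2 samples, as were 40.8%. The median difference of the 4 was -1.84 for R1 and -3.42 for R2 against MMS D14, and -1.32 for R1 and -2.63 for R2 against MMS D28.

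Ratios within a sample show the shift inside each pair of copies. Stfa2 over Stfa2l1 was 0.290 and 0.298 in MMS D3, 0.242 and 0.287 at MMS D7, 0.444 and 0.424 in MMS D14, and 0.284 and 0.232 in MMS D28. It was 0.12 and 0.145 in R1 and 0.0364 and 0.0780 in R2, against 0.0503 and 0.0781 in Control. The MMS groups lay above R1, and R1 above Control, with no overlap, while R2 overlapped Control. Since the unit is not stated, only the change of such a ratio between groups can be read, not its size.

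BC100530 over Stfa1 was 1.88 and 1.38 in MMS D3, 1.09 and 0.656 at MMS D7, 1.32 and 0.927 in MMS D14, and 0.960 and 0.755 in MMS D28. It was 0.475 and 0.406 in R1 and 0.324 and 0.598 in R2, against 1.08 and 0.660 in Control. MMS D3 was the highest group, R1 and R2 lay below Control in all samples, and MMS D7, MMS D14 and MMS D28 overlapped Control. Stfa2 over Stfa1, 2 copies that share less sequence, was likewise highest in MMS D3, with 3.13 and 2.14, against 0.932 and 0.805 in Control. It was 0.341 and 0.672 in R2, below Control in both samples.

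**Figure D4:**
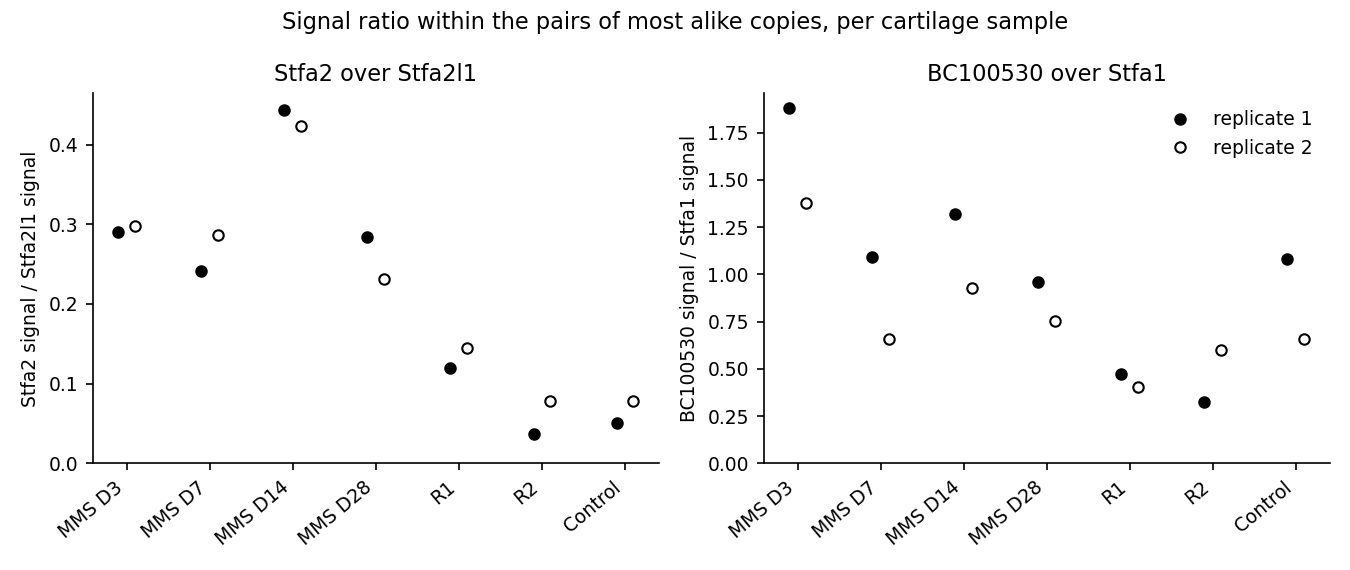
Ratio of the signals of Stfa2 over Stfa2l1 (left) and of BC100530 over Stfa1 (right) in each cartilage sample by group, with filled points for replicate 1 and open points for replicate 2. On the left, the MMS samples lie between 0.232 and 0.444, above R1, R2 and Control; on the right, MMS D3 is highest at 1.88 and 1.38, and R1 and R2 lie below Control.

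Despite these shifts the 4 genes varied together. Over the 14 samples, Pearson's r of their log2 values ranged from 0.90 for Stfa1 with Stfa2l1 to 0.97 for Stfa2 with BC100530. The samples fall into groups that differ, and reads may be shared between copies, so these r values are a description.

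The remaining copies in the table, Gm5483 and Stfa3, were not used in the choice and could be tested, although they too were listed with earlier results known. Stfa3 had 22.2 and 25.8 in MMS D3, 9.23 and 8.38 at MMS D7, 30.9 and 22.0 in MMS D14, and 13.1 and 9.11 in MMS D28. It had 7.05 and 5.17 in R1 and 2.55 and 4.01 in R2, against 2.27 and 2.43 in Control. This profile, highest in MMS D14 and MMS D3 with a dip in MMS D7, was of the form seen in BC100530 and Stfa2.

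Gm5483 had 52.5 and 61.3 in MMS D3, 38.0 and 26.2 at MMS D7, 66.3 and 50.4 in MMS D14, and 63.3 and 67.0 in MMS D28. It had 40.8 and 39.7 in R1 and 13.4 and 13.8 in R2, against 14.4 and 12.7 in Control. Its groups MMS D28, MMS D14 and MMS D3 overlapped in turn, and R2 overlapped Control. With 50-base windows, 35.6% of its transcript was shared with the copy 2010005H15Rik, so its values are uncertain in the same way.

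Both copies rose against Control in all 4 MMS groups (limma, Benjamini-Hochberg over 1606 genes). Their MMS D28 calls are bound to the selection of the table on that contrast and are a description only. For Stfa3 the log2 differences were 2.89 in MMS D3 (adjusted p = 5.45e-06), 1.55 at MMS D7 (adjusted p = 0.000396), 3.02 in MMS D14 (adjusted p = 2.7e-06) and 1.83 in MMS D28 (adjusted p = 5.13e-05), each ± 0.221. For Gm5483 they were 1.99 in MMS D3 (adjusted p = 2.2e-05), 1.17 at MMS D7 (adjusted p = 0.000683), 2.02 in MMS D14 (adjusted p = 7.96e-06) and 2.19 in MMS D28 (adjusted p = 4.5e-06), each ± 0.179. Of all genes, 12.9% were called higher in MMS D3, 6.79% at MMS D7, 25.5% in MMS D14 and 42.7% in MMS D28. Each of these calls held when any sample of the groups compared was left out.

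In R1 both copies also rose against Control, by 1.07 in Stfa3 (limma adjusted p = 0.00335) and 1.51 in Gm5483 (adjusted p = 0.000331), where 36% of genes were called higher. In R2 neither passed, with 0.33 for Stfa3 (limma adjusted p = 0.462) and 0.01 for Gm5483 (adjusted p = 0.989), where 0.0623% of genes were called higher. Against MMS D14, R2 was lower by limma in both, at -2.68 for Stfa3 (adjusted p = 3.7e-06) and -2.01 for Gm5483 (adjusted p = 5.78e-06), where 15.9% of genes were called lower. In R1 Stfa3 was lower than in MMS D14, at -1.94 (limma adjusted p = 0.00056), whereas the difference of Gm5483, -0.51, did not pass (adjusted p = 0.0693), where 9.78% of genes were called lower. Gm5483 differed between R1 and MMS D28 by -0.68 (limma adjusted p = 0.0378), and this call was lost without any 1 of the 4 samples, with adjusted p between 0.0633 and 0.182. Stfa3 differed there by -0.76 and did not pass (limma adjusted p = 0.0546). Of all genes, 1.49% were called lower in R1 than in MMS D28. R2 was lower than MMS D28 in both copies by limma, at -1.50 for Stfa3 (adjusted p = 0.000225) and -2.18 for Gm5483 (adjusted p = 3.44e-06), where 37.2% of genes were called lower. The calls of R1 and R2 against MMS D28 reuse the MMS D28 samples on which the table was selected, and are a description only.

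Of 14 other cystatin genes listed, 2 were in the table. Cst7, which encodes cystatin F, an inhibitor found in the endosomes and lysosomes of immune cells, had 46.4 and 42.8 in MMS D14, 60.4 and 50.9 in MMS D28, and 50.8 and 45.5 in R1, against 26.0 and 29.5 in Control. It rose in these 3 groups, by 0.67 in MMS D14 (limma adjusted p = 0.00285), 0.98 in MMS D28 (adjusted p = 0.000212) and 0.77 in R1 (adjusted p = 0.00269). In MMS D3, where the stefin A genes already stood high, Cst7 had 25.7 and 32.1 and a difference of 0.05 (limma adjusted p = 0.848). Kng2, a kininogen gene, averaged 6.01 ± 0.368 in MMS D14 and 6.52 ± 0.438 in MMS D28, against 2.69 ± 0.686 in Control. It rose by 0.94 in MMS D14 (limma adjusted p = 0.0033) and 1.04 in MMS D28 (adjusted p = 0.000962). As for the copies above, the MMS D28 calls of Cst7 and Kng2 are a description only.

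Of 11 cysteine cathepsin genes listed, the proteases of the kind that stefins bind, 3 were in the table, and they did not move together. Ctsc, whose product cathepsin C activates the serine proteases of neutrophil granules, had 32.5 and 28.5 in MMS D14, 35.2 and 24.9 in MMS D28, and 32.7 and 28.5 in R1, against 15.5 and 18.7 in Control. It rose by 0.81 in MMS D14 (limma adjusted p = 0.00208), 0.77 in MMS D28 (adjusted p = 0.00138) and 0.81 in R1 (adjusted p = 0.00335). Ctsw, known from cytotoxic lymphocytes, fell in MMS D3 by 0.52 (limma adjusted p = 0.0197), in MMS D28 by 0.69 (adjusted p = 0.000946) and in R1 by 0.67 (adjusted p = 0.00354). Of all genes, 11% were called lower in MMS D3, 54.6% in MMS D28 and 33.3% in R1. Ctso fell in MMS D28 by 0.52 (limma adjusted p = 0.00292) and in R1 by 0.35 (adjusted p = 0.0346). The MMS D28 calls of the cathepsin genes are again a description only. The call of Ctsw in MMS D3 was lost without any 1 of the 4 samples (limma adjusted p between 0.0598 and 0.128), as was that of Ctso in R1 (adjusted p between 0.0793 and 0.152). In limma, 0 of the 5 cystatin and cathepsin genes passed in R2 against Control, with 1 at an unadjusted p under 0.05. None of the 5 passed as higher in MMS D3, with 1 at an unadjusted p under 0.05, or in MMS D7, with 0.

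Because stefin A copies are known from neutrophils, the genes were set beside a list of neutrophil genes, of which 40 of 46 were measured when stefin copies were left out. In MMS D3, 3 of the 40 rose and 0 fell, where 12.9% of all genes were called higher and 11% lower, and the median log2 difference to Control was 0.01, beside 2.70 for the 4 stefin A genes. In MMS D7, 2 rose and 1 fell, where 6.79% of all genes were called higher and 15.6% lower, with a median of -0.13 beside 2.07. In MMS D14, 18 rose and 0 fell, where 25.5% of all genes were called higher and 28% lower, with a median of 0.48 beside 3.67. In MMS D28, 39 rose and 0 fell, where 42.7% were called higher and 54.6% lower, with 0.93 beside 2.88. The MMS D28 values are bound to the selection of the table, in which 99.0% of genes differed at least 1.5-fold between MMS D28 and Control, so nothing is read from that count or median. In R1, 39 rose and 0 fell, where 36% of all genes were called higher and 33.3% lower, with 0.92 beside 1.54. The R1 count shares its Control samples with the contrast of that selection. Against MMS D28, R1 had a median of -0.09 in this list, with 0 called. The R1 count is thus not free of the selection. In R2, 0 passed, with 0.17 beside 0.05, where 0.0623% of all genes were called higher and 0.685% lower. These counts are from limma. At an unadjusted limma p under 0.05, 7 of the 40 were higher and 2 lower in MMS D3, and 3 were higher and 3 lower in MMS D7. In MMS D14, 22 were higher and 0 lower, in MMS D28 and in R1 39 were higher and 0 lower, and in R2 2 were higher and 0 lower. The smallest difference among the 4 stefin A genes in MMS D3, 1.96 for Stfa2l1, exceeded the largest of the 40, 1.49 for Asprv1. Since the 4 genes were chosen with these values in view, nothing is read from that gap.

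The summed signal of the neutrophil list, Stfa3 included, was 32526 to 36651 in MMS D3, 27772 to 37002 at MMS D7, 45071 to 55627 in MMS D14, and 58827 to 78530 in MMS D28. It was 66783 to 68752 in R1 and 37512 to 47302 in R2, against 36498 to 37096 in Control, and no listed marker was at 0. Both R1 samples lay within the range of MMS D28, while each of the 4 stefin A genes was lower in R1 than in MMS D28. S100a9, which encodes a subunit of calprotectin, averaged 8272 ± 610 in MMS D3 and 16919 ± 609 in R1, against 8667 ± 609 in Control (SD, n = 2 each).

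The 3 neutrophil genes that rose in MMS D3 were Asprv1 by 1.49 (limma adjusted p = 0.00293), Ifitm6 by 0.84 (adjusted p = 0.0233) and Ctsg, the gene of the serine protease cathepsin G, by 0.58 (adjusted p = 0.0226). In MMS D7, Mmp9, the gene of gelatinase B, which is also on the bone list below, rose by 0.69 (limma adjusted p = 0.00614) and Ctsg by 0.55 (adjusted p = 0.0259), while Clec4d had -0.59 (adjusted p = 0.0462). These genes were named after their values were seen. Without any 1 of the 4 samples the calls of Ifitm6 in MMS D3 (limma adjusted p between 0.0706 and 0.143) and Ctsg in MMS D7 (adjusted p between 0.052 and 0.171) were lost. The call of Ctsg in MMS D3 was lost without Control replicate 1 (limma adjusted p = 0.128), Control replicate 2 (adjusted p = 0.0859) or MMS D3 replicate 2 (adjusted p = 0.175), and that of Mmp9 at MMS D7 without Control replicate 2 (adjusted p = 0.0528). That of Clec4d was lost without Control replicate 1 (limma adjusted p = 0.11), Control replicate 2 (adjusted p = 0.205) or MMS D7 replicate 2 (adjusted p = 0.247), and that of Asprv1 held without any of them. When each sample was centred on the median of the neutrophil list, an alternative chosen after seeing the data, the median of the 4 stefin A genes was 2.32 in MMS D3, 2.04 at MMS D7, 2.94 in MMS D14 and 1.59 in MMS D28. In R1 it was 0.39, with 0.81 for Stfa1, 0.75 for Stfa2, 0.03 for Stfa2l1 and -0.07 for BC100530, the last of opposite sign to the value without centring. The centring took the median level of the list in each sample, not the median difference of its genes to Control. That median difference was 0.92 in R1 and 0.01 in MMS D3, so nothing is read from the sign of BC100530 in R1. Such centring only rescales the values, and the part of neutrophil number in them was not tested.

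**Figure D5:**
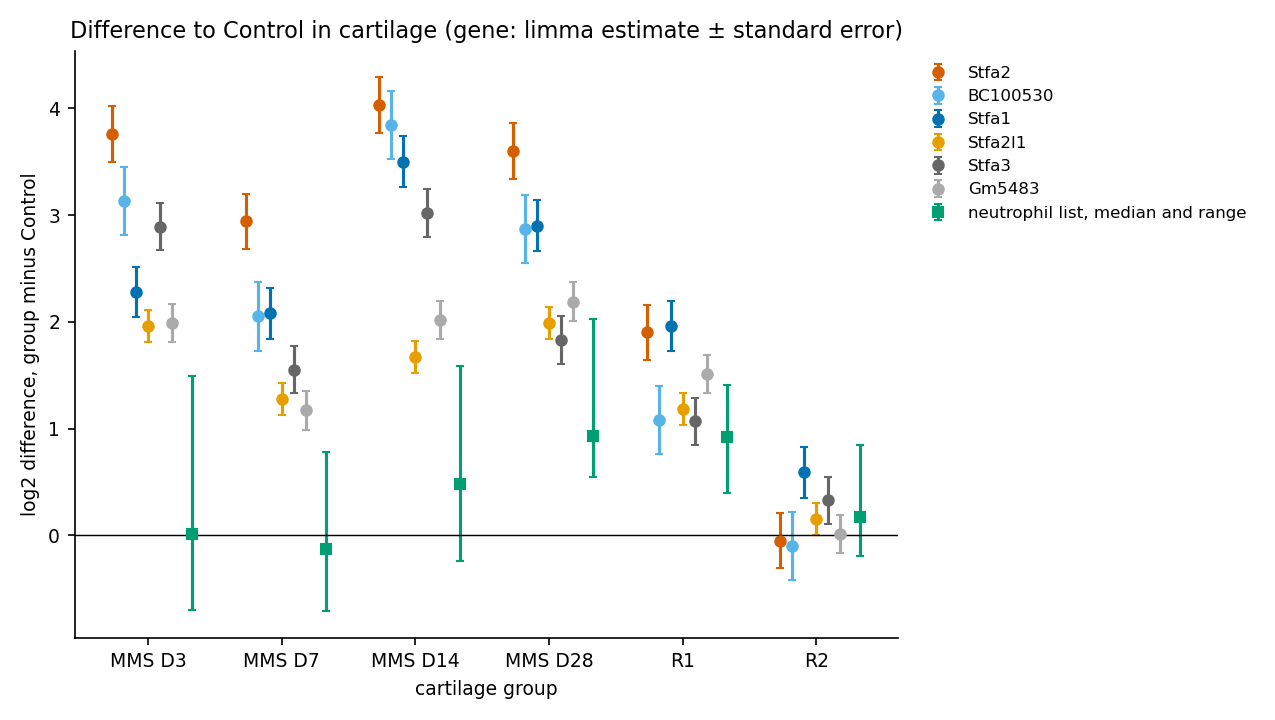
Difference to Control on the log2(value + 1) scale in each cartilage group, with points and error bars for the limma estimate ± SE of each stefin A copy, and squares with bars for the median and range of 40 neutrophil genes without stefin copies. In MMS D3 all 6 copies, from 1.96 up to 3.76, lie above the range of the neutrophil genes, -0.70 to 1.49. In R1 the range of the neutrophil genes is 0.40 to 1.41, with Stfa1, Stfa2 and Gm5483 above it and the other copies within it. In R2 that range is -0.19 to 0.85, and the copies lie between -0.10 for BC100530 and 0.59 for Stfa1. The stefin A genes were chosen with these values in view, so the gap is a description only.

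Markers of other cells also moved with the groups, and their part in the stefin A values was not tested. Of 22 chondrocyte genes, 17 were measured; in limma 1 rose and 1 fell in MMS D3, 4 fell in MMS D7, 13 fell in MMS D14 and 17 fell in MMS D28, with 0 rising in these 3 groups, also at an unadjusted p under 0.05. The MMS D28 counts of this list and of the B cell list below are again bound to the selection of the table on that contrast. They are a description only. Their summed signal was 24520 to 24839 in MMS D3, 5716 to 7142 in MMS D14 and 7210 to 8645 in MMS D28, against 15734 to 21063 in Control. The sum was highest in MMS D3, with large parts from Chad, which averaged 11800 there, and Prg4, which averaged 6568. Neither was called there (limma adjusted p = 0.201 for Chad and 0.0696 for Prg4), and the median difference of the 17 genes was 0.25. The sum thus does not stand for the list as a whole. Of 15 measured B cell genes of 21, 10 fell in MMS D3, 14 at MMS D7 and 13 in MMS D14, and in MMS D28 14 fell and 1 rose. Of all genes, 15.6% were called lower in MMS D7, 28% in MMS D14 and 54.6% in MMS D28. The summed B cell signal was 470 to 516 in MMS D3, 318 to 321 at MMS D7, 294 to 320 in MMS D14 and 231 to 336 in MMS D28, against 815 to 861 in Control.

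Other lists were sparsely covered, and their MMS D28 calls and counts are likewise a description only. Of 16 keratinocyte genes, which would mark skin, 1 was in the table, Perp, whose product is a membrane protein of cell junctions. Perp had 1.87 and 2.01 in MMS D14, 1.42 and 1.58 in MMS D28 and 1.53 and 1.60 in R1, against 0.970 and 1.0 in Control. It rose by 0.57 in MMS D14 (limma adjusted p = 0.000836), 0.33 in MMS D28 (adjusted p = 0.00777) and 0.37 in R1 (adjusted p = 0.0094), and was lower in R2 than in MMS D14, at -0.41 (adjusted p = 0.00717). The call in R1 was lost without Control replicate 1 (limma adjusted p = 0.0561) or R1 replicate 2 (adjusted p = 0.0543). With 1 low gene of the list measured, the part of skin in the stefin A values was not tested. Monocyte and macrophage genes were measured for 3 of 16, and they went different ways. Ccr2, the receptor gene by which monocytes follow the chemokine CCL2, rose by 0.78 in MMS D3 (limma adjusted p = 0.00761), 0.87 in MMS D14 (adjusted p = 0.00151), 1.29 in MMS D28 (adjusted p = 8.99e-05) and 1.23 in R1 (adjusted p = 0.000604). Its call in MMS D3 was lost without Control replicate 1 (limma adjusted p = 0.0697) or MMS D3 replicate 2 (adjusted p = 0.0592). Ly6c2, a surface antigen gene of inflammatory monocytes, had -0.10 in MMS D3 (limma adjusted p = 0.731) and rose by 0.83 in MMS D28 (adjusted p = 0.00139). Cx3cr1, the fractalkine receptor gene, had -0.41 in MMS D3 (limma adjusted p = 0.0524) and fell in MMS D28, at -0.77 (adjusted p = 0.000646). T cell genes were measured for 3 of 11, of which 1 fell in MMS D3 and 3 in MMS D28, with medians of -0.35 and -0.60. Bone genes of osteoblasts and osteoclasts, with Mmp9 again among them, were measured for 10 of 17, of which 3 fell in MMS D3, and 9 fell and 1 rose in MMS D28, with medians of -0.42 and -0.91. The 2 measured skeletal muscle genes summed to 6.57 to 12.4 in MMS D3, against 27.1 and 153 in the Control samples, and the 2 adipocyte genes to 70.8 to 86.4, against 207 and 563. Of the erythroid, platelet and cell cycle lists, 0 genes were analysed here.

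The genes whose pattern was most like that of the 4 stefin A genes were ranked by Pearson's r with the mean of their scaled log2 values over the 14 samples. Stfa3, at r = 0.94, and Gm5483, at r = 0.95, were among the first 10. Got1, which encodes the cytosolic aspartate aminotransferase, came first with r = 0.96. Rbm3, a gene of a cold-inducible RNA-binding protein, Cpd, the carboxypeptidase D gene, Stat3, the gene of a transcription factor of cytokine signalling, and 3110082I17Rik each had r = 0.95. Rab31, a small GTPase gene, and Sema6b, a semaphorin gene, each had r = 0.94, and the remaining gene of the 10 carries a damaged symbol and is not named. In all, 21 of 1602 other genes had r of at least 0.90.

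The genes named above had higher means in every MMS group than in R2 and Control, as the stefin A genes did. Those that are no stefins stood less far above Control in MMS D3 and MMS D14. The finer profile was not shared by all. Stfa1, Stfa2 and BC100530 peaked in MMS D14, whereas Rbm3 and Stat3 did not. In R1, Rbm3 and Stat3 also stayed nearer to their MMS D14 means than Stfa1, Stfa2 and BC100530 did. Rbm3 averaged 398 in MMS D3, 345 at MMS D7, 356 in MMS D14, 396 in MMS D28, 307 in R1 and 187 in R2, against 159 in Control. Stat3 averaged 47.2 in MMS D3, 45.9 at MMS D7, 46.9 in MMS D14, 50.3 in MMS D28, 43.3 in R1 and 35.0 in R2, against 31.9 in Control. On the log2 scale the 6 named genes that are no stefins and have a described product stood 0.41 to 1.31 above Control in MMS D3. Of the 40 neutrophil genes, 1 reached r of 0.90, Asprv1 with 0.91, and their median r was 0.32.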

How the data were processed

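RNA of synovium and cartilage was taken with Trizol and libraries were made by BGI protocols, per the labels' protocols. Reads were aligned with HISAT2 and the build was mm10, per the submitters' processing notes. The deposited cartilage table holds a normalised signal whose unit, counting method and gene selection are not given in the sources used here. The deposited synovium table holds FPKM, per the file headers, and was not used for these genes. No counts were analysed and depth is unknown, so the 2 samples per group limit the precision.

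Samples were grouped by the group name in their labels. Values were taken as log2(value + 1) without further scaling and fitted in limma 3.58.1 (R 4.3.3) with a variance trend, all 14 cartilage samples together. The 10 comparisons set each group against Control, and R1 and R2 also against MMS D14 and MMS D28. Benjamini-Hochberg adjustment ran over the 1606 genes, and an adjusted p under 0.05 was called. The filter, a value of at least 1 in 2 samples, removed 0 genes, and all 4 stefin A genes passed it. At most 0.56% of values were identical between any samples. The fit was tested on simulated data.

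The 4 genes and all lists were chosen with earlier results of these data known. Named were the 4 genes, the 10 genes most like them, all measured stefin A copies, cystatins and cysteine cathepsins, and up to 6 genes of the other lists. Positions came from GENCODE vM21 and promoters from RefSeq. Alternatives changed the pseudocount, centring, filter, trend, replicate block, groups fitted and samples. Python 3.11.15 was used with numpy 2.4.6, pandas 2.3.3 and matplotlib 3.10.9.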

Additional observations from a re-analysis of the deposited data

How the results depend on the processing

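The 4 stefin A genes kept the sign of their difference under every alternative in all comparisons except R1 and R2 against Control, where 43 of 44 and 38 of 44 values kept it. With a pseudocount of 0.1 their median difference to Control was 3.05 in MMS D3, 2.39 at MMS D7, 4.05 in MMS D14 and 3.24 in MMS D28, and it was -3.75 for R2 against MMS D14 and -2.95 for R2 against MMS D28. Centring each sample on the median level of the neutrophil list, chosen after seeing the data, gave 2.32 in MMS D3, 2.94 in MMS D14, 1.59 in MMS D28, 0.39 in R1 and -0.20 in R2 against Control. It gave -2.26 for R1 and -2.94 for R2 against MMS D14, and -1.59 for R2 against MMS D28. Without 1 replicate each, the median against Control was 2.44 to 2.96 in MMS D3, 1.81 to 2.33 at MMS D7, 3.41 to 3.93 in MMS D14, 2.58 to 3.19 in MMS D28, 1.32 to 1.74 in R1 and -0.20 to 0.34 in R2. Against MMS D14 it was -1.93 to -1.74 in R1 and -3.67 to -3.17 in R2, and against MMS D28 -1.53 to -1.08 in R1 and -2.94 to -2.33 in R2.

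Genes called over the table depended on the samples. Without 1 replicate each, 126 to 206 were called in MMS D3 (383 with all samples), 197 to 327 at MMS D7 (359), 502 to 714 in MMS D14 (859), 1319 to 1512 in MMS D28 (1563), 536 to 799 in R1 (1112) and 0 to 17 in R2 (12). Against MMS D14 the counts were 117 to 170 in R1 (290) and 345 to 440 in R2 (573), and against MMS D28 13 to 295 in R1 (122) and 751 to 1333 in R2 (1270). In these fits the lone sample is assumed to vary like the other groups. With only the 2 groups compared, 0 genes were called in R2 against Control, 467 in R1 against MMS D14 and 68 in R1 against MMS D28, and 8 neutrophil genes in MMS D3 in place of 3. The cause was not tested. Neutrophil genes called higher without 1 replicate each numbered 1 to 2 in MMS D3, 0 to 2 at MMS D7, 8 to 15 in MMS D14, 32 to 39 in MMS D28, 28 to 34 in R1 and 0 to 0 in R2.

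With replicate number as a block, 1 gene was called in R2 against Control in place of 12. Same-numbered samples did not deviate together in a consistent way. Over 21 pairs of groups r ran from -0.51 to 0.42, with a median of -0.09, and was over 0.1 in 6 pairs. Of the 10 most alike genes, 6 were also in the first 10 by Spearman's rho and 9 without the 2 samples farthest from the median, Control replicate 1 and R2 replicate 1. The alternatives planned for synovium were not run. The unit, the depth and the handling of shared reads are not known, so values of single copies carry an error that 2 samples cannot show.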

Other observations

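The genes with the pattern most opposite to that of the 4 stefin A genes, chosen after their values were seen, were Natd1 with r = -0.97 and Acrbp with r = -0.96 over the 14 samples. Natd1 averaged 8.96 in MMS D3, 10.3 at MMS D7, 8.82 in MMS D14, 9.21 in MMS D28, 10.9 in R1 and 12.6 in R2, against 13.8 in Control. Acrbp averaged 5.17 in MMS D3 and 5.28 in MMS D14, against 9.96 in Control. Blnk, which encodes an adaptor of B cell receptor signalling, followed with r = -0.93, and averaged 15.9 in MMS D3 and 13.4 in MMS D14, against 30.7 in Control.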
